A study of Mus musculus with 6 samples.

Results

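Box C/D snoRNAs were examined in small RNA libraries of regulatory T (Treg) cells from wild-type (WT) mice and from miR-181a/b-1-/- mice, here called KO, which lack the microRNA genes Mir181a-1 and Mir181b-1. The genes taken here are those whose GENCODE vM21 symbol starts with Snord and whose biotype is snoRNA, without the ones that act in cleavage of the ribosomal RNA precursor (Snord118, Snord13, Snord22 and the Snord14 genes) and without those in the introns of Rpl13a (Snord32a, Snord33, Snord34 and Snord35a). This rule gave 87 of the 54547 genes in the count files. The labels give genotypes wild type and miR-181a1/b1 -/-, with 3 libraries each, all on the strain background written C5BL6/N in the labels. Thymi were taken at 7 weeks of age, and each library came from Treg cells sorted from 3 pooled thymi. The deletion is constitutive, so every cell of a KO mouse carries it.

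Box C/D snoRNAs are short nucleolar RNAs that guide 2'-O-methylation of ribosomal RNA. Each one carries a box C near its 5' end and a box D near its 3' end, is bound by fibrillarin, Nop56, Nop58 and Snu13, and pairs with its target through the bases just before box D or before an internal copy of it. Most are cut out of introns of a host gene, often a gene for a ribosomal or nucleolar protein, after the host transcript has been spliced. A few families, among them Snord116, lie in imprinted clusters and are known mainly from neurons.

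The libraries held 168293 to 307840 counts on genes. Of all records per library, 75.7% to 80.3% went to no gene. This includes records without a unique alignment (41.7% to 46.2% of all) and ambiguous ones that fell on more than 1 gene (20.4% to 24.0% of all). The 6 Treg markers together had 205 to 237 counts in WT and 179 to 280 in KO libraries. Of these markers, Ikzf2 had the most (283 counts in WT and 308 in KO libraries), while Ctla4 had 1 count in all, in a WT library. By comparison, 6 markers of double-positive thymocytes together had 1 to 5 counts, 4 B-cell markers 0 to 2 and 4 myeloid markers 0 to 4. For 5 erythroid markers the count was 0 in every library. The deleted genes could not be used to check the genotype, since Mir181a-1 had 1 count in all, in a WT library, and Mir181b-1 had 0.

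The sequences of the most abundant members and of 3 that share a host gene show the common layout. They are given 5' to 3' from GENCODE vM21, build GRCm38, with box C (searched as TGATGA within the first 25 bases) and box D (searched as CTGA within the last 20 bases) in capitals.
Snord82, chr1:86356261-86356330, minus strand: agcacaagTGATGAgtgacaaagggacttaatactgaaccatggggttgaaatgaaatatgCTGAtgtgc
Snord104, chr11:106500993-106501062, plus strand: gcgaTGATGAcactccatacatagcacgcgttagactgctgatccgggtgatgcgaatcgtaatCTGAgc
Snord37, chr10:81178950-81179013, plus strand: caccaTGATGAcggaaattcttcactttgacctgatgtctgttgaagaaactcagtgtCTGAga
Snord49b, chr11:62603079-62603150, plus strand: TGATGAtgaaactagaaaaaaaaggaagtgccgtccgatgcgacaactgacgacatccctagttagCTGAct
Snord49a, chr11:62603450-62603521, plus strand: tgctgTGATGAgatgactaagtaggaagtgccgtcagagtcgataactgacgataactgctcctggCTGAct
Snord65, chr11:62604515-62604586, plus strand: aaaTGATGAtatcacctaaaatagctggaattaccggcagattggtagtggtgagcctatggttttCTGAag
Members were 64 to 238 bases long, with a median of 81. The exact box C letters were found in 64 of the 87 members (73.6%) and box D in 85 (97.7%), with both in 62. Among the 42 Snora genes, which belong to the other large class of snoRNAs (box H/ACA), 0 held the box C letters and 5 (11.9%) the box D letters in the same windows.

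Box C/D snoRNAs of this list took up a large part of what was counted on genes. Their share of the gene counts was 23.05%, 22.7% and 21.1% for the WT replicates and 21.5%, 21.4% and 22.7% for the KO replicates, in order of number, so the groups overlapped. The mean was 22.3% ± 1.04 (SD, n = 3) for WT and 21.8% ± 0.748 (SD, n = 3) for KO, a difference of -0.44 percentage points, smaller than the SD of either group. It was 0.06 percentage points when the 3 most counted genes of any library were left out, which removed mt-Rnr2, mt-Rnr1, Gm42418 and, from the members themselves, Snord82. It was -1.03 percentage points without WT replicate 3 and -0.05 without WT replicate 1. For the Snora genes the share was 1.52% ± 0.327 (SD, n = 3) in WT cells and, at 1.79% ± 0.351 (SD, n = 3), within 1 SD of this in KO cells. These shares are of reads that one protocol captured, and a snoRNA that was captured more often cannot be told apart here from one that is more abundant. In such bulk samples a change in the number of contributing cells and a change in RNA per cell cannot be told apart either.

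Only part of the list was counted at all. Of the 87 members, 35 had a count in at least 1 library and 52 were listed at 0 in all 6. For a gene to which reads can be assigned, a count of 0 allows up to 3 counts, or 0.000975% to 0.00178% of the gene counts of a library. This limit does not hold for a member whose reads could not be assigned to it, as can be so where genes overlap or share a sequence. The members at 0 include the Gas5 snoRNAs Snord47, Snord78 and Snord80 (annotated as 2 overlapping genes), which come from a host RNA that had 69 counts in WT and 83 in KO libraries, and the Rack1 snoRNAs Snord95 and Snord96a. They also include all 17 genes of the imprinted Snord116 family and the neighbouring imprinted genes Snord64 and Snord107.

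Whether a member had counts went with its place in the annotation. Of 51 members that lie only in introns of other genes on their strand, 32 had counts, with a median of 2809 counts summed over the 6 libraries. The 19 at 0 were the 17 Snord116 genes, 14 of which have 1 common sequence, and Snord85 and Snord7. Snord104, which lies in no other gene of the annotation, had 27204 counts. Of 35 members that overlap an exon of another gene on the same strand, 33 were at 0. In 26 of these 35 the exon belongs to a transcript of the retained-intron type, that is, a host transcript annotated with the snoRNA's intron still in place. Exons of any transcript type covered 31 members over their whole length, and all 31 were at 0, among them 22 covered by a gene with a retained-intron transcript there. The 2 that had counts were covered in part, Snord66 over 1.3% of its bases (1005 counts) and Snord42b over 31.9% (11 counts). Snord111 and Snord67, covered over 77.5% and 83.8%, were at 0.

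**Figure D1:**
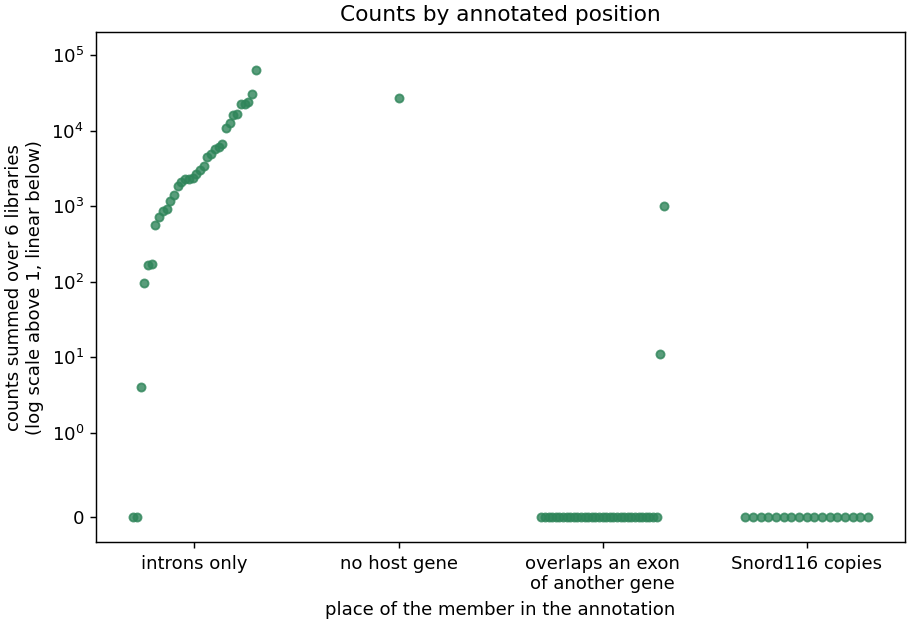
Counts of each of the 87 members summed over the 6 libraries (vertical axis, log scale above 1 and linear below), by place in GENCODE vM21 (horizontal axis, 1 point per gene). The points at 0 are 2 of the 34 members in introns only that are not Snord116 genes, 33 of 35 that overlap an exon of another gene, and all 17 Snord116 genes.

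The same split was seen between neighbours within 1 host gene. At 4 host loci with 2 members, 1 member was counted and the other was not, and in each of them the uncounted one overlapped an exon. The values of 3 of these loci follow. In Nop56, which encodes one of the proteins of the box C/D particle itself, Snord110 had 5986 and Snord57 had 0. Rps3 gave 2370 counts on Snord15a and 0 on Snord15b, and the locus of 2410002F23Rik gave 713 on Snord88c and 0 on Snord88a. HTSeq assigns a read that falls on exons of 2 genes to neither of them, and whether the missing reads were among the ambiguous records was not tested, because the reads were not used here. Snord4a and Snord42a overlap an exon of Tlcd1 on the opposite strand only, and they had 2266 and 2077 counts. Whether strand was used in the counting is not given in the sources used here. The values at 0 are therefore reported as listed, not as absence of the RNA.

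The Snord116 genes lie within Snhg14 on chromosome 7 of GRCm38, between 59861731 and 59904848. Of the 17, 14 have exactly the same sequence, which 16 further annotated genes with other names share, so a read from them has no unique alignment. Snord116l9, Snord116l12 and Snord116l14 have sequences of their own, with 78.7%, 72.0% and 84.0% of their 20-base stretches shared with other annotated genes. They were at 0 too, and their host Snhg14 had 0 counts in each library. The common sequence of the 14, again with box C and box D in capitals, is shown because reads from these 14 genes cannot be assigned to one of them.
Snord116l1, chr7:59894620-59894713, minus strand: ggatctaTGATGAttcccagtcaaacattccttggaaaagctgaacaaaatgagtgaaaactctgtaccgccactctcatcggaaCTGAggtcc

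Levels of the counted members spanned a wide range. They are given as CPM (counts scaled to library size with TMM factors) per 100 bases of gene length, with the SD over the 6 libraries, and all level comparisons between genes use this scale. The 33 members with at least 10 counts in at least 3 libraries differed 634-fold between the highest and the lowest. Snord82, in an intron of the nucleolin gene Ncl, was the highest at 76100 ± 7815 (SD, n = 6) and lay above every other member in each library. It made up 17.4% to 24.4% of the counts on members in a library, and the 10 most counted members made up 80.8% to 83.0%.

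Below Snord82 came 4 members whose ranges over the libraries overlapped, although Snord49b was the lowest of the 4 in each library. Snord49a was at 34282 ± 7572, Snord104 at 31982 ± 4692, Snord37, in an intron of the elongation factor gene Eef2, at 30374 ± 5161 and Snord49b at 25723 ± 5396 (SD, n = 6 for each). All 4 are known as guides for the large-subunit ribosomal RNA. Snord83b, in Rpl3, followed at 19531 ± 1832 and Snord61, in the gene of the RNA-binding protein Rbmx, at 19140 ± 5722. Snord87, in the noncoding host Snhg6, was at 15032 ± 2038, Snord65 at 14296 ± 2323 and Snord55 at 11445 ± 1464. At the low end were Snord93 at 187.7 ± 42.9, Snord53 at 182.8 ± 66.7 and Snord98 at 120.0 ± 32.95. Snord42b and Snord123 had 11 and 4 counts in all and did not enter the test.

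**Figure D2:**
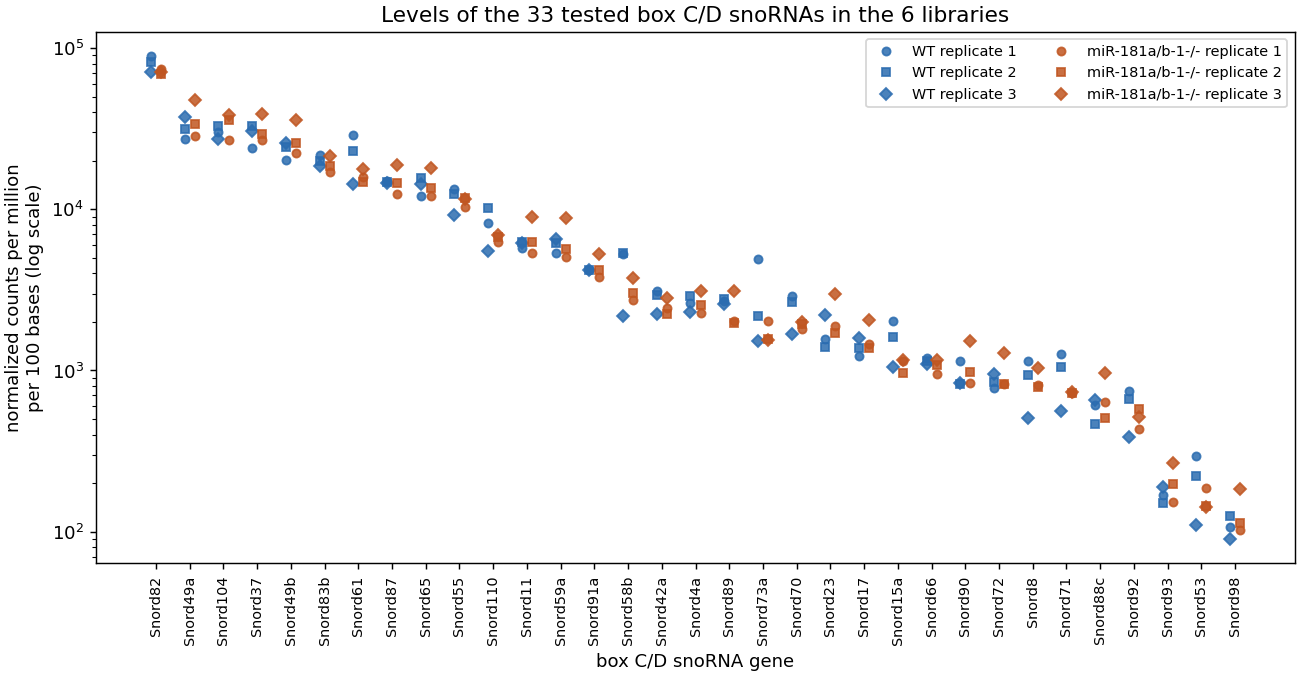
TMM-normalized CPM per 100 bases of gene length (vertical axis, log scale) of the 33 tested members (horizontal axis, ordered by mean), with 1 point per library, WT in blue and KO in orange. Snord82 is the highest in every library, and for each member the points of both genotypes overlap.

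Members of 1 host gene did not always have 1 level. In Rpl23a the tested members were close, with Snord42a at 2636.2 ± 367.1 and Snord4a at 2622.5 ± 334.8 (SD, n = 6 for each), and their order changed between libraries. In the 3 hosts that follow, the members differed. Snord49b, Snord49a and Snord65 lie in this order in introns of the noncoding host 2410006H16Rik on chromosome 11, and Snord49a was the highest of them in each library and Snord65 the lowest. The exons of this host had 46 counts in WT and 45 in KO libraries, against 12604 to 30413 for each snoRNA. Nop58, which encodes another protein of the box C/D particle, holds Snord11 at 6472 ± 1285 and Snord70 at 2161 ± 496.4. In Wdr43, a gene for a protein of the small-subunit processome, Snord92 was at 553.6 ± 138.0 and Snord53 at 182.8 ± 66.7 (SD, n = 6 for each), higher for Snord92 in all 6 libraries.

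Box C/D snoRNAs are known to lie most often at a short and rather constant distance before the next exon of the host, where splicing and assembly of the particle are coupled. In these data, 9 of the 10 members with the highest level have a host gene, and each of the 9 lies 67 to 92 bases before the nearest next exon (median 71). The other 23 tested members lie 67 to 3973 bases before it (median 198), with 13 of them at more than 100 bases. Over the 32 members with a host, Spearman's rho between level and distance was -0.63. Over all 33 members rho was -0.32 between level and length, but level was itself divided by length, which can by itself give a negative value. These are descriptions across genes, which share libraries and hosts and are not independent replicates. Snord11, at 719 bases, was the highest of the distant members, whereas Snord88c and Snord72 were near the next exon (79 and 82 bases) at levels of 641.3 and 918.8.

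**Figure D3:**
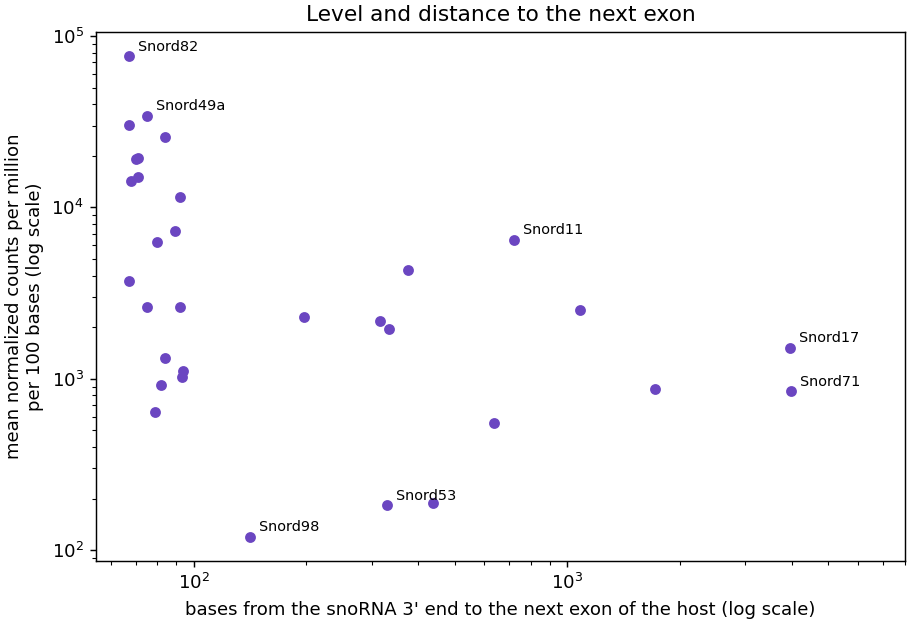
Mean TMM-normalized CPM per 100 bases (vertical axis, log scale) of the 32 tested members with a host gene against the distance from their 3' end to the nearest next exon of the host (horizontal axis, bases, log scale). The highest levels are found at 67 to 92 bases, where lower levels also occur.

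To show what these RNAs can pair with, each member was searched for an uninterrupted run of at least 11 bases that is complementary to 18S ribosomal RNA and ends at most 2 bases before a CTGA. The 18S sequence was that of the annotated gene CT010467.1, chr17:39846353-39848201 in GRCm38, which is annotated on the minus strand; both strands were searched. Such a run was found in 15 of the 87 members (17.2%) against the plus strand and in 0 against the minus strand. In the 42 Snora genes it was found in 0 against either strand. The entry is therefore taken here as annotated opposite to 18S RNA, and the stretches of 18S RNA named below are those of the plus strand. Of the 15, 11 had counts. The runs are in capitals in the sequences below, which include the 3 most abundant of these members, Snord57, which was listed at 0 beside Snord110 in the same host, and the pair Snord11 and Snord70.
Snord82: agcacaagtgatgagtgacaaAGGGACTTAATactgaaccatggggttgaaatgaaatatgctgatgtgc
Snord61: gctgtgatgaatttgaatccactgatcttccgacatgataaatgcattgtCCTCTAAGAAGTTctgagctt
Snord11: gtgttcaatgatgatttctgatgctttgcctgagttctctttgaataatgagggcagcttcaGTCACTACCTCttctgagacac
Snord70: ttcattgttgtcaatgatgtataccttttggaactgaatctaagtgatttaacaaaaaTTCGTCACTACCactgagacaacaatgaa
Snord110: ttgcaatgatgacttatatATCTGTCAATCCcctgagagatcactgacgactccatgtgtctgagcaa
Snord57: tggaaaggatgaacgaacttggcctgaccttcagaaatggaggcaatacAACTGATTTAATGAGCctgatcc
The run of Snord82 pairs with chr17:39848034-39848044 and lies before an internal CTGA, and that of Snord61 pairs with chr17:39847797-39847809 and lies before box D. Snord11 and Snord70, which share the host Nop58, pair with overlapping stretches of 18S RNA, chr17:39846866-39846876 and chr17:39846868-39846879. Snord57 had the longest run, 16 bases, as did Snord45c, and both were listed at 0. The full 28S sequence was not used here, so guides of the large subunit, such as Snord49a, were not searched for. A match is a stretch of letters and does not show that the site was methylated in these cells.

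The comparison of genotypes asked whether loss of miR-181a/b-1 in Treg cells went with a change in other small RNAs. For the box C/D snoRNAs no member passed the test. All 1391 genes with enough counts were fitted together with edgeR's quasi-likelihood test, and 33 members were among them. At an adjusted p under 0.05, 0 members were lower and 0 higher in KO cells, as were 0 of all genes tested (0%), and the lowest adjusted p of a member was 0.896 (edgeR, Benjamini-Hochberg over all genes). DESeq2 on the same genes also called 0 members, and the share of all genes it called is not given here. At an unadjusted p under 0.05, 1 member was lower, where 2.66% of all genes were lower, and 0 were higher, where 2.52% of all genes were higher. The number lower was 0 without WT replicate 1 or without KO replicate 2, and it was 6 of 33 (18.2%) without WT replicate 3, where 3.16% of all genes were lower.

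For no member were the 3 libraries of one genotype all below or all above those of the other, whereas among all genes 4.82% had every KO library below the WT libraries and 3.24% every one above. Of the 33, 15 had a negative log2 fold change and 18 a positive one, next to 50.7% negative among all genes. The log2 fold changes of members ran from -0.76 to 0.35 with a median of 0.03, and those of all genes had a median of -0.0040. The sign of the members' median rested on single libraries, since it was -0.13 without KO replicate 3, -0.07 without WT replicate 3 and -0.01 without WT replicate 1. The standard errors of the members were smaller than those of other genes, with a median of 0.24 against 0.34 for all genes. For 28 of the 33 members the 95% confidence interval of the change lay within 2-fold in either direction.

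**Figure D4:**
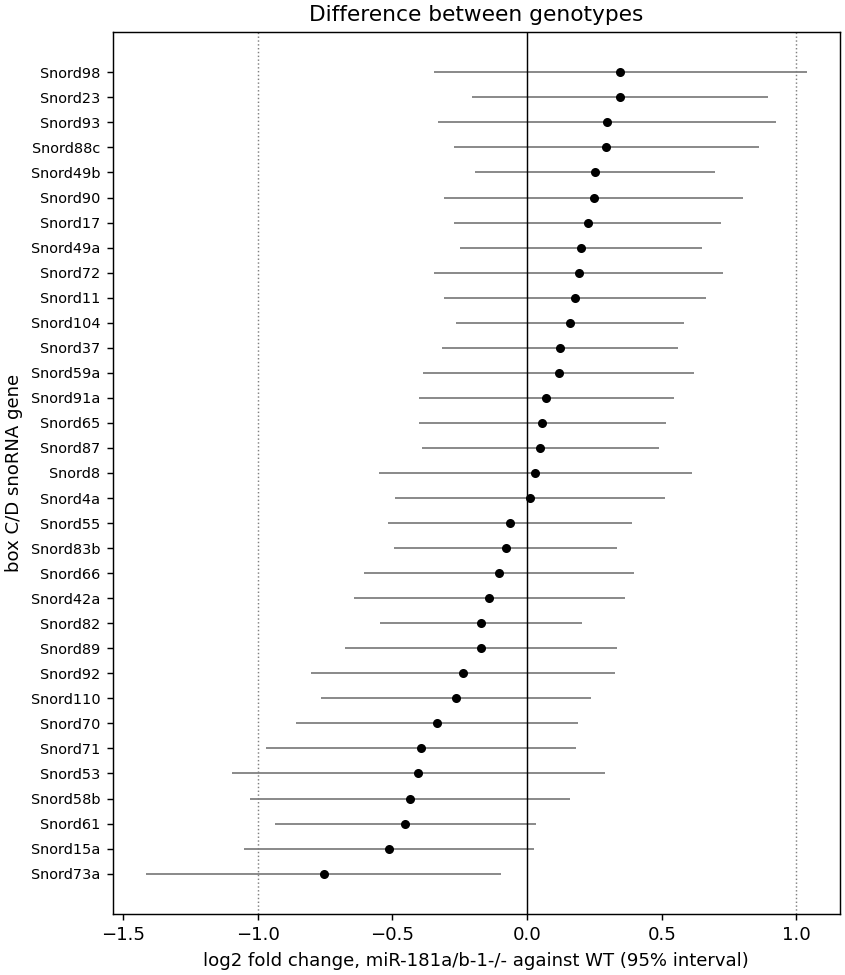
Log2 fold change of KO against WT libraries (horizontal axis) of the 33 tested members (vertical axis, ordered by value), with points for the edgeR estimate and lines for its 95% confidence interval. The dotted lines mark 2-fold changes, and 28 intervals lie between them.

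None of the 10 most abundant members passed the test. Snord82 had 62152, 57724 and 49416 CPM in WT replicates 1, 2 and 3 and 51941, 48469 and 49916 CPM in KO replicates 1, 2 and 3. WT replicate 3 lay within the range of the KO libraries. The log2 fold change of Snord82 was -0.17 (95% interval -0.55 to 0.20).

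Snord49a had 19611, 22568 and 26749 CPM in the WT libraries and 20498, 24173 and 34500 CPM in the KO libraries, a log2 fold change of 0.20 (95% interval -0.25 to 0.65). Snord49b, from the same host, was at 0.25 (-0.19 to 0.70) and Snord65 at 0.06 (-0.40 to 0.52). All 3 were highest in KO replicate 3. Snord104 was at 0.16 (-0.26 to 0.58), Snord37 at 0.12 (-0.32 to 0.56) and Snord83b at -0.08 (-0.50 to 0.34). Snord87 was at 0.05 (-0.39 to 0.49) and Snord55 at -0.06 (-0.51 to 0.39). Snord61 had the largest difference of the 10, at -0.45, and is described with the lowest fold changes.

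The lowest fold changes belonged to Snord73a, Snord15a, Snord61, Snord58b and Snord53. Snord73a, in the ribosomal protein gene Rps3a1, was the single member with an unadjusted p under 0.05 (log2 fold change -0.76, 95% interval -1.42 to -0.10, edgeR unadjusted p = 0.0265, adjusted p = 0.896). Its values were 3356, 1484 and 1041 CPM in WT and 1369, 1065 and 1050 CPM in KO libraries. WT replicate 1 alone stood above the other 5 libraries by more than 2-fold, and without it the log2 fold change was -0.14. Snord61 had 20482, 16399 and 10220 CPM in WT and 11331, 10463 and 12643 CPM in KO libraries (log2 fold change -0.45, 95% interval -0.94 to 0.03).

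Snord15a, in Rps3, had 2987, 2399 and 1546 CPM in WT and 1707, 1432 and 1715 CPM in KO libraries (-0.51, 95% interval -1.05 to 0.03). In Snord61 and Snord15a, WT replicates 1 and 2 lay above and WT replicate 3 below or within the range of the other genotype. Snord58b (-0.43) shares 76.6% of its 20-base stretches with 3 other annotated genes, so its count is uncertain, and Snord53 (-0.40) had only 170 counts in all. Without WT replicate 1 the log2 fold change was -0.24 for Snord61, -0.31 for Snord15a, -0.29 for Snord58b and -0.10 for Snord53, and without WT replicate 3 it was -0.68, -0.73, -0.74 and -0.71.

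The highest fold changes were those of Snord98 (0.35, 95% interval -0.34 to 1.04), Snord23 (0.35, -0.21 to 0.90), Snord93 (0.30, -0.33 to 0.92), Snord88c (0.29, -0.27 to 0.86) and Snord49b. Snord23, in the gene of the nucleolar protein Nop53, had 1713, 1535 and 2402 CPM in WT and 2062, 1849 and 3257 CPM in KO libraries. KO replicate 3 was the highest value of Snord23, and the other libraries of both genotypes were interleaved. Snord93 and Snord88c share 61.5% and 49.3% of their 20-base stretches with other annotated genes, which makes their counts uncertain too. Without KO replicate 3 the log2 fold change was 0.0074 for Snord98, 0.05 for Snord23, 0.05 for Snord93, -0.02 for Snord88c and 0.03 for Snord49b.

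The spread between replicates followed different members in the 2 genotypes. In 10 members the coefficient of variation was over 25% in WT, and in all 10 WT replicate 3 was the lowest of the WT libraries. These were Snord73a, Snord53, Snord58b, Snord8, Snord71, Snord92, Snord61, Snord15a, Snord110 and Snord70. Their coefficient of variation in KO libraries was at most 16.0%, and 9 of the 10 had a negative log2 fold change. Because the 10 were picked by their WT spread, the sign of their fold change is not independent of that choice. The share of negative values among all genes with such a spread is not given here. In 11 other members the coefficient of variation was over 25% in KO libraries, and in all 11 replicate 3 was the highest. Over 25% in both genotypes there were 0 members. Among all genes tested, 46.2% were over 25% in WT, 52.0% in KO and 26.8% in both. The median coefficient of variation of members was 16.05% in WT and 17.6% in KO, against 23.6% and 25.95% for all genes.

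Snord71 shows the first pattern, with 1070, 899.5 and 477.7 CPM in WT and 615.1, 614.5 and 627.6 CPM in KO libraries. Snord59a, in the ATP synthase gene Atp5b, shows the second, with 3958, 4548 and 4826 CPM in WT and 3733, 4172 and 6547 CPM in KO libraries. Over the 33 members, WT replicate 3 was the lowest WT library in 63.6%, against 33.4% of all genes tested, and KO replicate 3 was the highest of its group in 84.8%, against 36.8%. Replicate 3 of KO also had the most gene counts (307840), the largest share of records given to no gene (80.3%) and the lowest TMM factor (0.876). The part of these differences in the pattern was not tested. The limit of 25% was set after the values were seen.

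**Figure D5:**
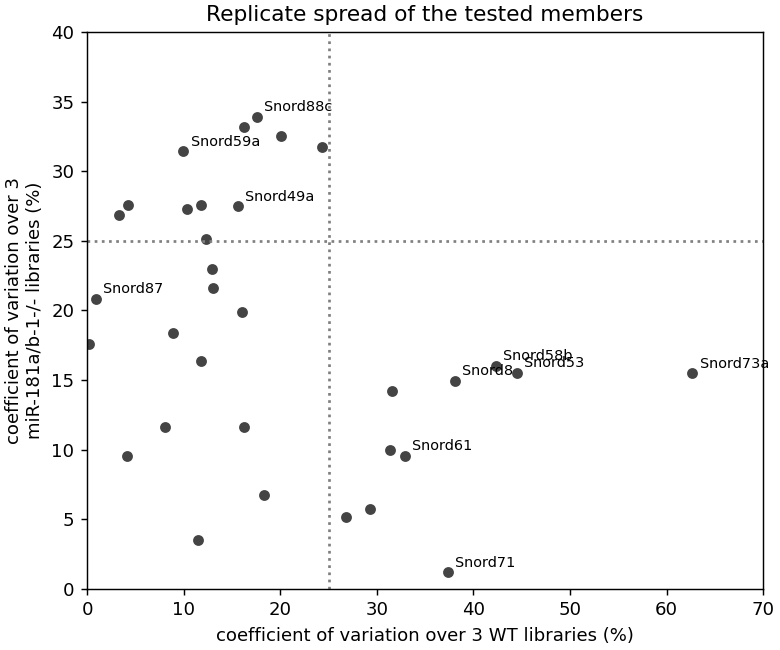
Coefficient of variation over the 3 WT libraries (horizontal axis, %) and over the 3 KO libraries (vertical axis, %) of the 33 tested members, 1 point per gene, with dotted lines at 25%. There are 10 points to the right of the vertical line and 11 above the horizontal one, and 0 beyond both.

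Apart from 1110038B12Rik, the host of Snord52 with 25925 counts in WT and 27194 in KO libraries, each host gene had at most 653 counts in WT and 608 in KO libraries. Of 52 host genes, 25 had enough counts for the test, 16 of them with a positive log2 fold change and 0 with an adjusted p under 0.05. At an unadjusted p under 0.05 there was 1, Atp5b, with 84 counts in WT and 51 in KO libraries, where 2.66% of all genes were lower and 2.52% higher. Its snoRNA Snord59a had a log2 fold change of 0.12 and the Atp5b exons one of -0.65, and the difference between them was not tested.

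Of the 4 core proteins of the particle, Nop58 alone had enough counts (log2 fold change -0.01, edgeR adjusted p = 0.998). The methyltransferase fibrillarin (Fbl) had 7 and 3 counts in WT and KO libraries, Nop56 had 15 and 4, and Snu13 had 5 and 2. Of 9 assembly and maturation factors, 8 were found in the files and 0 had enough counts, with 16 to 19 counts over the list in WT and 12 to 16 in KO libraries.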

How the data were processed

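Small RNA from 6 samples of sorted thymic Treg cells (3 WT, 3 KO) was made into libraries with the SMARTer smRNA-Seq kit. The authors deposited raw counts per gene made with HTSeq from STAR alignments, which were used unchanged. Upstream steps were Flexbar for adapters and a Bowtie 2 filter against rRNA. The submitters' processing notes give GRCm38.p6. The annotation release is not given in the sources used here. Of 54547 identifiers, 51550 match GENCODE vM21 with their version and 53706 without it, and members, coordinates and sequences were taken from vM21. A deposited table of microRNA features holds the authors' own comparison and was not used. Records given to no gene stayed out of library sizes.

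The 1391 genes that reached 10 counts in 3 or more libraries were tested with edgeR 4.0.16 in R 4.3.3 (TMM, quasi-likelihood test, Benjamini-Hochberg over all genes). Standard errors were derived from the fold change and the F statistic. The code was tested on simulated data. Libraries of 1 genotype were not duplicates (chi-square 2.62 to 7.26 times its degrees of freedom), and the methods call them biological replicates. Totals of 168293 to 307840 counts per library limit the precision for members with few counts. Named members are the 10 with the highest level per length, the 5 lowest and 5 highest fold changes, and the most and least counted of a host with at least 3 tested members. Others, such as Snord71, Snord59a and the members of mixed hosts, were chosen after their values were seen. Members and lists were chosen with earlier results of these data known. Alternatives were DESeq2 1.42.0, 2 other filters, 3 other normalizations, an adjusted p of 0.1, a replicate block and leaving out each library. The values of 1 host locus are not reported here.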

Additional observations from a re-analysis of the deposited data

How the results depend on the processing

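With each alternative tried, 0 members were lower and 0 higher at an adjusted p under 0.05, and 0 higher at an unadjusted p under 0.05. This held for DESeq2, both other filters, the 3 other normalizations, the replicate block and the 6 fits that each left out 1 library. At an adjusted p under 0.1 the counts were 0 and 0 as well. In the main fit 2.52% of all genes were higher at an unadjusted p under 0.05, and 0% passed the adjusted 0.05. Under the alternatives these 2 shares of all genes are not given here. The number lower at an unadjusted p under 0.05 was 1 as reported, 2 without a filter (1.29% of all genes), 2 with at least 10 counts in each library (2.67%), 3 without a TMM factor (2.52%), 2 with TMM factors over the members (1.73%), 2 with the replicate block (2.88%) and 0 to 6 over the fits that left out 1 library. These gave 0 without WT replicate 1 (1.34% of all genes) or KO replicate 2 (1.83%), 6 without WT replicate 3 (3.16%) and 3 without KO replicate 3 (3.53%). The cause was not tested.

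Of 234 log2 fold changes of the 18 named members under 13 alternatives each, 8 changed sign, all in fits that left out 1 library, and the lowest adjusted p among the 234 was 0.4005 (Snord73a without KO replicate 1). Over those fits the range was -0.0496 to 0.22 for Snord37, -0.0414 to 0.34 for Snord49a, -0.13 to 0.16 for Snord65, -0.20 to 0.0148 for Snord55, -0.13 to 0.16 for Snord87 and -0.0168 to 0.49 for Snord88c. The median of the members' log2 fold changes ran from -0.13 without KO replicate 3 to 0.10 without KO replicate 1. The difference in the share of gene counts ran from -1.03 to -0.05 percentage points when 1 library was left out, and was 0.06 without the 3 most counted genes of any library, Snord82 among them. Same-numbered libraries deviated together only weakly (correlations over genes of 0.205, 0.081 and 0.169), so the numbers were not taken to pair the samples, although each library correlated best with its own number. Snord73a was at -0.59 with the replicate block.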

Other observations

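The host gene of Snord52, 1110038B12Rik, stood apart from the other 51 host genes. It had 25925 counts in WT and 27194 in KO libraries, whereas the next host, Rpl23a, had 653 and 608, and Snord52 itself was listed at 0 in all 6 libraries. Snord52 lies within an exon of a retained-intron transcript of this host. Which part of 1110038B12Rik the reads fell on was not tested, since the files hold 1 count per gene. Its log2 fold change was 0.10 (standard error 0.20).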
